A study of Mus musculus with 6 samples.

Results

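This is an account of 124 mouse lincRNA genes that carry only a provisional name, the letters Gm followed by a number, as counted in RNA from pancreatic islets. They were selected on their mean raw count: every gene of the count table with such a symbol, the GENCODE gene type lincRNA and a mean of at least 30 counts over the 6 libraries was taken, with 1 gene left out. The table held 443 such genes among 15286 genes, so 319 fell below the limit. The level that chose them is therefore given as a description only. Gm47818 and Gm20735 entered with a mean of 30.0 counts and Gm29811 with 32.7, while Gm45509 and Gm26615 (both 29.7) and Gm26536 (29.2) stayed just outside.

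The islets came from 6 male C57Bl/6N mice of 12 weeks that had been fasted overnight. After isolation they recovered for 2 h at 3 mM glucose, and 1 strand-specific total RNA library was made per mouse. WT2772, WT2777 and WT2931 were wild type. KO2775, KO2776 and KO2938 were flox/flox mice, homozygous for an allele of the lincRNA gene A830019P07Rik that holds a floxed, promoter-driven neo cassette in its first intron, in all cells of the body. WT2772, WT2777, KO2775 and KO2776 came from litter 1, and WT2931 and KO2938 from litter 2. The question asked of the libraries was which islet genes differ when transcription of A830019P07Rik is cut short, and that gene itself was not analysed here.

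A lincRNA is a long transcript without a known protein product, from a gene annotated as lying between protein-coding genes. The name Gm marks a predicted mouse gene model, and for nearly all of these genes no function is established. Many such models nevertheless share bases with another gene on the opposite DNA strand. A read is then assigned to one gene or the other by its strand alone, and a counter such as HTSeq in its default mode takes only reads that run along the strand of the gene. Whether the reads of these libraries run along the RNA or along its complement is not given in the sources used here. A count on a lincRNA therefore cannot be told apart, from the counts alone, from reads of the gene that faces it.

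The totals per library ranged from 611181 to 800255 counts. These are reads assigned to genes, a small part of the sequencing depth that the paper states. AY036118, a gene in the ribosomal RNA cluster of chromosome 17, held between 13.6% and 22.1% of the counts in 5 libraries. In KO2938 it held 41.0% (95% exact binomial interval 40.9 to 41.1%, counting error only), so KO2938 lay above the other 5. The tissue label was checked against islet markers. All 10 beta cell markers had counts, but their level was low: Ins2 had a mean of 151.5 counts, Ins1 61.8 and Iapp 57.7, against 53.0 for Gcg and 189.0 for Chga. Ins1, Ins2 and Gcg encode the main hormones of beta and alpha cells. None of the 10 beta cell markers has an exon of another gene on the opposite strand. Acinar, ductal, endothelial, stromal and immune lists summed to at most 63.6, 33.8, 29.9, 9.60 and 20.6 CPM (counts divided by the TMM-scaled library size) in any library. Of their defining markers, Krt19, Sox9, Cdh5, Col1a1, Ptprc and Adgre1 have no row in the count table.

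Most of the 124 lincRNAs face a gene on the opposite strand. In 97 of the 124 (78.2%), at least 1 exon base lay opposite an exon of another gene, and in 27 none did. The share was also 78.2% over all 2645 annotated genes with a mean of at least 30 counts. The shared part is shown here for 5 lincRNAs on which the results below turn, all in genome build GRCm38, read 5′ to 3′ on the strand of the lincRNA. Capitals mark the bases that lie opposite an exon of the other gene, and lower case marks bases that lie opposite its introns or beyond it. The windows straddle a border of the shared part, and those of Gm29233 and Gm44148 are whole exons.
Gm17275, chr1:180803146-180803265, plus strand, opposite coding bases of H3f3a: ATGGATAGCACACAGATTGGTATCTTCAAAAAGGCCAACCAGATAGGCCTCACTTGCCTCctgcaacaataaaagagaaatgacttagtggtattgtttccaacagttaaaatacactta
H3f3a, the 60 shared bases on its own strand: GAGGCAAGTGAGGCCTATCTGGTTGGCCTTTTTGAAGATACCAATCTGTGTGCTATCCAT
Gm26582, chr5:92054994-92055113, plus strand, opposite coding bases of G3bp2: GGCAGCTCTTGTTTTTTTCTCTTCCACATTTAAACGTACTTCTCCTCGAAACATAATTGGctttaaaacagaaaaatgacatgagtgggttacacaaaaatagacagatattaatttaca
Gm29233, chr2:118123877-118124047, minus strand, opposite a coding exon of Thbs1: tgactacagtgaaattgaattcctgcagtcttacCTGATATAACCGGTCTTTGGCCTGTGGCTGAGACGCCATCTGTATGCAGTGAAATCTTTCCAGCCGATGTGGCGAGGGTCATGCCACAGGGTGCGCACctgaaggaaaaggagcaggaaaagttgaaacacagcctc
Gm44148, chr6:121255203-121255387, minus strand, opposite coding bases of Usp18: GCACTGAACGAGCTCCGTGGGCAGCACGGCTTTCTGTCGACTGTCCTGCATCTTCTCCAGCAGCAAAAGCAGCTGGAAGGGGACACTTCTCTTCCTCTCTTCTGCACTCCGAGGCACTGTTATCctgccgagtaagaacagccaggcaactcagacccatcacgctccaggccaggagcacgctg
Gm26526, chr7:39589658-39589777, minus strand, opposite the pseudogene Gm2058: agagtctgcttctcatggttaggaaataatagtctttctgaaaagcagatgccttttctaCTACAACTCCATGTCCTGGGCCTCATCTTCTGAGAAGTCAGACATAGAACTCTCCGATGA
The exon of Gm29233 shown is whole and holds the 98 bases of the Thbs1 exon with intron bases on both sides, so the lincRNA model runs through exon and intron of Thbs1. In Gm17275, Gm26582 and Gm44148 the model likewise crosses the border between a coding exon and the bases next to it.

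The share of genes with an opposite-strand exon was higher at each higher level of counts. Among Gm-named lincRNAs it was 29.5% of the 275 genes with a mean under 10 counts, 61.4% of 44 genes with 10 to under 30, 69.5% of 59 genes with 30 to under 100 and 86.2% of 65 genes with 100 or more. All genes of the table ran in the same order, from 27.6% of 9921 to 46.8% of 2692, 70.6% of 1685 and 91.6% of 960. In the whole annotation 12.4% of 4216 Gm-named lincRNAs have such an exon. The pattern was thus shared by the lincRNAs and the table as a whole, and nothing in it was particular to the 124.

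**Figure D1:**
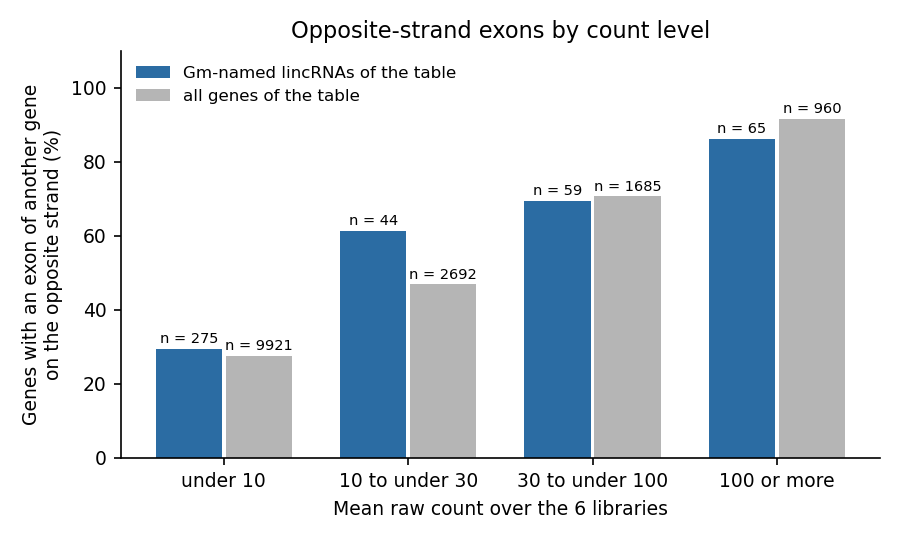
Percentage of genes with an exon of another gene on the opposite strand (y axis) by mean raw count over the 6 libraries (x axis), for Gm-named lincRNAs (blue) and all genes of the table (grey), with the number of genes over each bar. The blue bars climb from 29.5% to 86.2% and the grey bars from 27.6% to 91.6%.

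The 124 genes also resembled each other in their models. A single annotated transcript of 2 exons was the rule in 90 of them (72.6%), against 45.1% of the Gm-named lincRNAs below the limit and 37.5% of those in the annotation. Their numbers clustered too: 80 (64.5%) were numbered between Gm26500 and Gm26999, against 22.3% below the limit and 5.79% in the annotation. Their merged exons had a median length of 2291 bases, from 256 to 6548, against 1406 bases below the limit. The limit was set on raw counts, which are not scaled for exon length, so these medians are a description only. They lay on 20 chromosomes, 77 on the plus and 47 on the minus strand, with at most 11 on any chromosome. Gm17200 alone shared exon bases with another gene on its own strand.

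The gene that shared most bases was protein-coding for 80 of the 97 lincRNAs. It was another lincRNA for 5, a processed pseudogene for 4, an antisense gene for 2, a processed transcript for 2, and a ribosomal RNA, a snoRNA, an unprocessed pseudogene and a transcribed unprocessed pseudogene for 1 each. The shared part had a median of 727 bases, from 28 to 6243, or 46.2% of the exon bases of the lincRNA. It covered every exon base of 18 lincRNAs and under 10% of another 18. Of the 80 with a protein-coding gene opposite, 50 lay within that gene, 19 reached its 3′ end and 11 its 5′ end, and 57 shared bases of its coding sequence.

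The protein-coding genes opposite were counted far below the lincRNAs that face them. Of the 80 genes, 65 have a row in the count table and 15 do not. The 65 had a median of 4.83 mean counts, from 0.50 to 61.8, and 45 of them had a mean under 10, while their lincRNAs had a median of 144.5. Per kb of exon the lincRNA was higher in 64 of 65 pairs and more than 10 times higher in 57, with a median ratio of 153. Gm26792 opposite Cuedc2 was the exception, with a ratio of 0.85 (27.4 against 32.4 CPM per kb). Since the lincRNAs were chosen for their counts and the facing genes were not, these ratios are a description and were not tested.

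**Figure D2:**
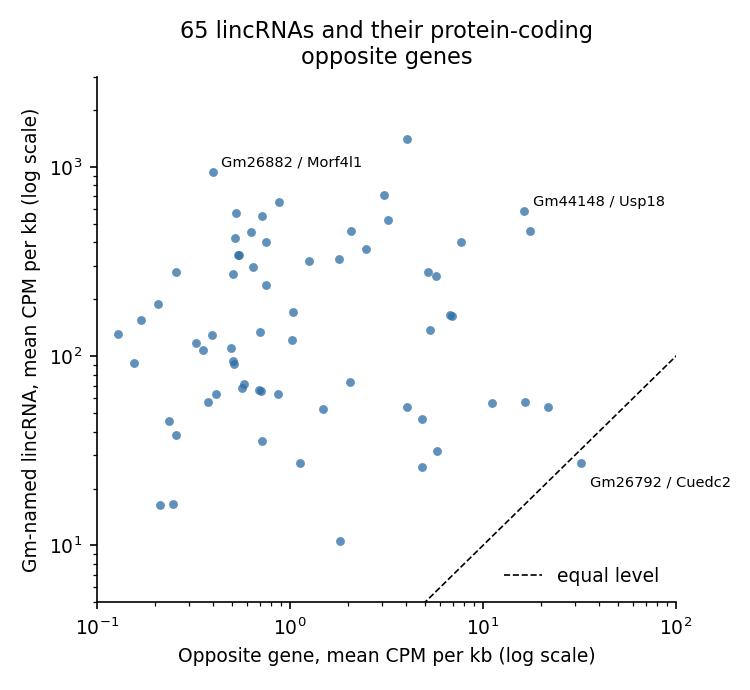
Mean CPM per kb of exon over the 6 libraries of 65 Gm-named lincRNAs (y axis, log scale) against that of the protein-coding gene opposite (x axis, log scale). Each point is a pair and the dashed line marks equal levels. 64 points lie above the line, and Gm26792 with Cuedc2 lies below it.

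The best counted lincRNAs are given here with the genes that face them. Gm17275 (chr1:180802568-180809483, plus strand) shares 638 of its 2550 exon bases with H3f3a, which encodes histone H3.3, and 126 of them are coding. It stood at 1607, 1685 and 1632 CPM in WT2772, WT2777 and WT2931 and at 1664, 1788 and 1641 CPM in KO2775, KO2776 and KO2938. Its coefficient of variation of 3.83% was among the lowest of all 124, and its raw count had a mean of 1126 against 2.17 for H3f3a.

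Gm26582 (chr5:92043064-92055960, plus strand) reaches the 3′ end of G3bp2, an RNA-binding protein of stress granules. It had 2120, 2145 and 2121 CPM in the WT and 2509, 2418 and 2046 CPM in the flox/flox libraries, with a mean of 1501 counts against 17.7 for G3bp2. The 2 groups overlapped, with KO2938 below the WT range.

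Gm26882 (chr9:90094178-90095902, plus strand) faces Morf4l1, a chromodomain protein of histone acetyltransferase complexes, and showed the widest gap of the 65 pairs at 948 against 0.40 CPM per kb.

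Gm26906 (chr12:109568628-109571723, minus strand) lies with all 1228 exon bases opposite Meg3, an imprinted long non-coding RNA that is itself well known in islets. It had a mean of 1109 counts and Meg3 had 12.8. Gm17300 (chr4:132351772-132353382, plus strand) faces Snhg3, a host gene of small nucleolar RNAs, over 705 of its 1527 exon bases. It had 1608 ± 482 CPM per kb (SD, n = 6), and Snhg3 has no row in the count table. Gm26883 (chr2:169633646-169888503, minus strand) shares 5076 of 5115 exon bases with Tshz2, which encodes a zinc finger protein, and 3054 of them are coding. Its mean count was 1133 against 9.33 for Tshz2, and Gm26518 had 1020 against 61.8 for Pcbp2, an RNA-binding protein.

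Gm42418 (chr17:39846958-39848788, plus strand) exceeded every other member. Of its 1831 exon bases 1822 lie opposite the ribosomal RNA gene CT010467.1, and 923 also lie opposite AY036118, which was counted higher per kb (256800 against 12590 CPM). Its mean raw count of 14940 was followed by 1674 for Gm17300. It alone held 1.04% to 3.47% of the counts of a library. Gm26917 (chr17:39843013-39846341, plus strand), whose end lies 12 bases from the same ribosomal RNA gene, had a mean of 379.3 counts and was the best counted of the 27 without an opposite-strand exon.

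The 27 lincRNAs without an opposite-strand exon were counted lower. Their median was 57.9 CPM per kb, from 16.1 to 263, and that of the 97 was 117.5, from 10.6 to 12590. Most of the 27 still lay close to a gene on the other strand. In 16 the span overlapped such a gene without a shared exon base, and 14 of these genes are protein-coding. A further 9 had an opposite-strand gene within 5000 bp, beyond the 3′ end of that gene for 5 and before its 5′ end for 4. Gm13115 and Gm47818 were farther away, at 38970 and 26240 bp.

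Gm13833 led the 27 per length, with 263 ± 99.6 CPM per kb (SD, n = 6). It lies at chr6:31102846-31104646, plus strand, within the span of Lncpint, a long non-coding RNA gene induced by p53. Gm37027 (198 ± 50.3), Gm12319 (189 ± 65.6), Gm13115 (173 ± 37.9), Gm26917 (168 ± 16.9), Gm26603 (139 ± 16.5), Gm13572 (106 ± 7.27) and Gm27042 (102 ± 13.4) followed. The ranges of mean ± SD of neighbours in this order overlapped, except for Gm26603 and Gm13572. Gm26603 and Gm13572 lie within the spans of Fmnl2, an actin regulator, and Baz2b, a chromatin protein.

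Together the 124 lincRNAs held between 5.60% (95% exact binomial interval 5.54 to 5.65%, WT2931) and 6.83% (6.77 to 6.88%, WT2777) of the counts of a library. These intervals cover counting error only. The share was 6.15% ± 0.63 in WT and 6.21% ± 0.46 in flox/flox libraries (SD, n = 3 each), a difference within the spread (exact permutation test, two-sided, p = 0.90, where 0.10 is the smallest p that 3 against 3 allows). Without Gm42418, and as a share of counts other than Gm42418 and AY036118, the values were 5.30% ± 0.08 and 5.36% ± 0.35 (p = 0.80, same exact test). KO2938 was lowest at 4.95%.

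Across the 6 libraries the lincRNAs varied by amounts close to those of other genes above the limit. Their coefficient of variation had a median of 15.4% over the 97 and 14.9% over the 27, and reached 67.1%, against a median of 16.5% over the 2655 genes with a mean of at least 30 counts. The highest library exceeded the lowest more than 2-fold in 19 of 124 (15.3%) and in 17.6% of those genes. Gm16548 (67.1%), Gm42418 (63.4%), Gm26617 (55.7%), Gm26526 (47.7%), Gm26825 (46.6%) and Gm26869 (45.8%) varied most.

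Without litter in the model, no lincRNA passed the threshold for genotype, and with litter as a replicate block 1 did. In edgeR's quasi-likelihood test with genotype alone, 0 of 124 had a Benjamini-Hochberg adjusted p under 0.05, as did 0 of the 5478 genes tested (0%), and every member had an adjusted p of 1.00. All 124 passed the low-count filter. At an unadjusted p under 0.05 the counts were 2 of 124 (1.61%) and 1.84% of all genes. DESeq2 and limma-voom, without the block, also called 0 members. The log2 fold changes of flox/flox over WT had a median of 0.03, from -0.38 to 1.02, against -0.01 over all genes, with 73 above 0 and 51 below. Both classes of lincRNA had a median of 0.03.

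The genotype groups did not overlap in CPM for 4 lincRNAs (3.23%), against 7.43% of all genes tested. Gm26563, opposite the Polycomb gene Suz12, had 249.7, 227.1 and 242.0 CPM in WT and 272.4, 269.5 and 274.4 CPM in flox/flox libraries. Its log2 fold change was 0.18 ± 0.14 (SE). Gm16755, opposite the mitochondrial ribosomal gene Mrpl12, and Gm37256, opposite Golim4, were also higher in all flox/flox libraries, with log2 fold changes of 0.29 ± 0.16 and 0.20 ± 0.17. Gm13620, opposite Baz2b, was lower, with 67.2, 76.6 and 66.3 CPM in WT against 54.8, 47.6 and 59.4 CPM, a log2 fold change of -0.38 ± 0.22. It was the largest negative value of the 124. None of these 4 passed the test.

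Gm26526 had the largest genotype difference and the smallest p. This lincRNA (chr7:39588518-39591679, minus strand) shares 552 of 2927 exon bases with the processed pseudogene Gm2058, as shown above. It had 86.4, 286.8 and 152.8 CPM in WT2772, WT2777 and WT2931 and 417.5, 375.1 and 276.1 CPM in KO2775, KO2776 and KO2938. WT2777 exceeded KO2938, so the groups overlapped, while within each litter every flox/flox library lay above every WT library.

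The log2 fold change was 1.02 ± 0.31 (SE, unadjusted p = 0.00590, adjusted p = 1.00, edgeR). With litter as a replicate block it was 1.01 ± 0.18 (adjusted p = 0.00141, edgeR). Gm26526 was the 1 member called in that fit, which called 0.0548% of all genes, and at an unadjusted p under 0.05 it had 9 of 124 members (7.26%) and 5.40% of all genes. With robust estimation added to the block the adjusted p was 0.959. In the main fit the adjusted p stayed between 0.284 and 1.00 with each library left out, and the log2 fold change lay between 0.70 without WT2772 and 1.58 without WT2777. The reads of Gm26526 and its pseudogene partner, or of other copies of that sequence, may not be separable, so its count is uncertain.

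Ordered by p, the next were Gm26869 (within the span of Zfp971, log2 fold change 0.72 ± 0.31, unadjusted p = 0.0376) and Gm26804 (0.55 ± 0.29) among higher values, and Gm11766 (-0.36 ± 0.23) and Gm16337 (-0.36 ± 0.24) after Gm13620 among lower ones, all with an adjusted p of 1.00 in edgeR. Gm26869 had 34.3, 53.2 and 46.0 CPM in WT and 63.7, 111.0 and 47.2 CPM in flox/flox libraries. KO2938 fell within the WT range.

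**Figure D3:**
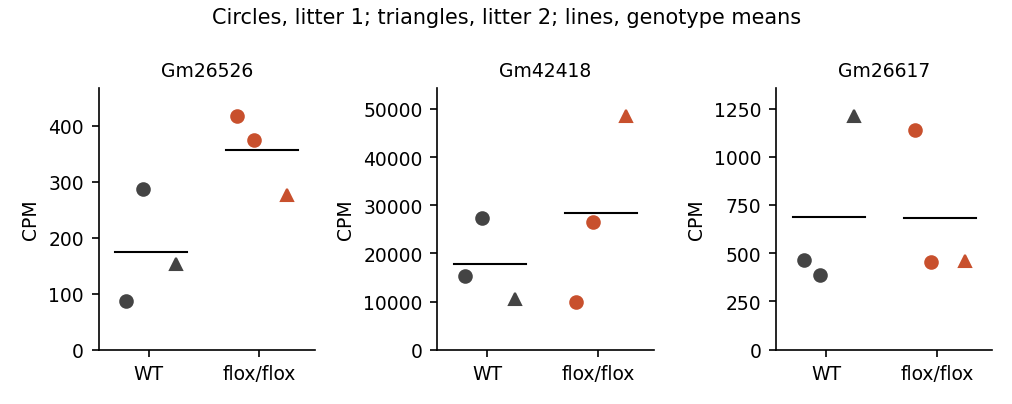
CPM (y axis, from 0) of Gm26526, Gm42418 and Gm26617 in the 3 WT (grey) and 3 flox/flox libraries (orange). Circles are litter 1, triangles litter 2 and lines the genotype means. Gm26526 has flox/flox values from 276.1 to 417.5 CPM, and the other two show opposite orders of the genotype means in the 2 litters.

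More lincRNAs were called for litter than for genotype. Litter 2 (WT2931 and KO2938) was compared with litter 1 (the other 4 libraries) in edgeR with genotype in the model, since each litter held both genotypes. Each side is a single litter, so the p values measure spread between mice within litters and not between litters. Anything else that differed along with litter cannot be told apart from it. Of the 124, 27 (21.8%) had an adjusted p under 0.05, against 11.3% of all 5478 genes and 16.3% of the 2655 genes with a mean of at least 30 counts. The litters did not overlap in CPM for 56 lincRNAs (45.2%), against 32.9% of all genes. That background, like the one for each direction below, includes genes with a mean under 30 counts. No share without those genes was computed for them.

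Lower in litter 2 were 12 of the 124 (9.68%, against 5.24% of all genes), and all 12 have an opposite-strand exon, as do 78.2% of the 124. Higher were 15 (12.1%, against 6.08%), of which 9 have an opposite-strand exon and 6 do not. In both directions together, 21 of the 97 and 6 of the 27 were called. The median log2 fold change was -0.14 over the 97 and 0.12 over the 27, or -0.08 over all 124, against -0.01 over all genes tested. These medians were not tested against each other.

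**Figure D4:**
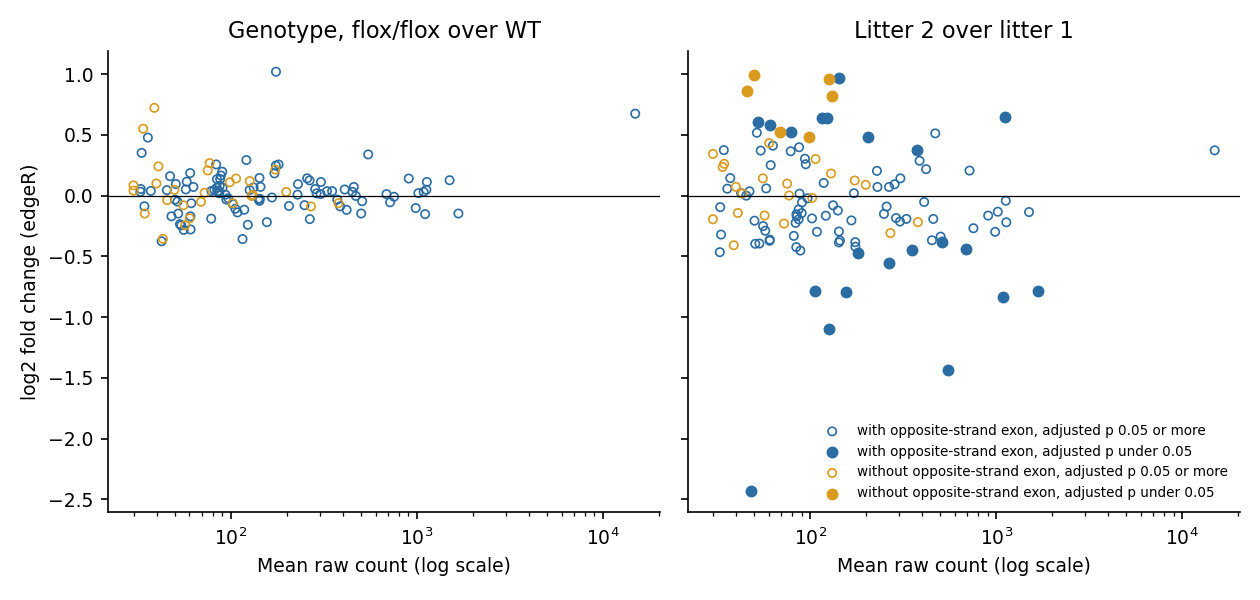
log2 fold change from edgeR (y axis) against mean raw count (x axis, log scale) for the 124 lincRNAs, by genotype (left) and by litter (right), in blue with and in yellow without an opposite-strand exon. Filled points have an adjusted p under 0.05, which holds for 0 lincRNAs on the left and 27 on the right.

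The 12 lincRNAs that were lower in litter 2 face genes of different kinds. Gm16548 (chr1:164148591-164152217, minus strand) reaches the 3′ end of Selp, which encodes P-selectin, an adhesion molecule of endothelium and platelets. It had 76.8, 135.0, 65.1 and 107.4 CPM in WT2772, WT2777, KO2775 and KO2776, and 10.8 and 26.2 CPM in WT2931 and KO2938. This was the widest litter difference of the 124, a log2 fold change of -2.44 ± 0.32 (adjusted p = 1.31e-07, edgeR). The mean of Gm16548 was only 48 raw counts, and 262 of its exon bases lie opposite F5.

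Gm44148 (chr6:121255203-121272685, minus strand) shares 124 of 316 exon bases with Usp18, an interferon-induced protease that removes ISG15. Litter 1 had 285.4, 164.8, 257.6 and 195.5 CPM and litter 2 had at most 111.8 CPM, a log2 fold change of -1.10 ± 0.18 (adjusted p = 1.87e-05, edgeR). Usp18 itself, at a mean of 30.8 counts, had a litter log2 fold change of 0.47 (adjusted p = 0.245) and was not called.

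Gm26778 (chr14:102978220-102982528, plus strand) lies wholly opposite Kctd12, an auxiliary subunit of GABA-B receptors. It had 1941, 1739, 1922 and 1925 CPM in WT2772, WT2777, KO2775 and KO2776 and 1084 and 1021 CPM in WT2931 and KO2938, a log2 fold change of -0.84 ± 0.13 (adjusted p = 6.21e-06, edgeR). Kctd12 had a mean of 2.17 counts.

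Gm29233 (chr2:118123451-118124047, minus strand), whose exon opposite Thbs1 is printed above, had 167.4, 196.0, 167.3 and 193.7 CPM in litter 1 and 120.3 and 87.4 CPM in litter 2. Thbs1 encodes the matrix protein thrombospondin-1. The log2 fold change was -0.79 ± 0.17 (adjusted p = 7.98e-04, edgeR), and without KO2938 it was -0.59 and no longer called.

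Gm26825 (chr5:5781530-5783636, plus strand) faces the processed pseudogene Gm15459 with 91.8% of its exon bases. Its values of 1039, 732.0, 1242 and 1117 CPM in litter 1 and 385.3 and 365.2 CPM in litter 2 gave the smallest adjusted p of the members (log2 fold change -1.44 ± 0.15, adjusted p = 2.63e-10, edgeR). Gm17300 opposite Snhg3 fell by 0.78 on the log2 scale (SE 0.14), from between 2401 and 3498 CPM in litter 1 to 1752 and 1564 CPM in litter 2.

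Of the other 6 that were lower, 5 are named here. They face Zfp36l1, which promotes the decay of mRNAs (Gm26669, log2 fold change -0.79), Phlda1 (Gm28592, -0.56), the zinc finger gene Zfp26 (Gm26733, -0.47), the transcription factor gene Klf7 (Gm26649, -0.44) and Mob3a (Gm26541, -0.38). The standard errors of the 6 ran from 0.13 to 0.16 and the adjusted p values from 2.83e-04 to 0.0417 in edgeR. In each of the 12 both libraries of litter 2 lay below all 4 of litter 1.

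Among the 15 that were higher in litter 2, Gm45897 had the largest change. It lies at chr9:118584853-118590195, minus strand, 2334 bp beyond the 3′ end of Golga4, a Golgi protein gene, and has no opposite-strand exon. It had 45.3, 62.3, 63.7 and 51.1 CPM in litter 1 and 110.9 and 111.8 CPM in litter 2, a log2 fold change of 1.00 ± 0.20 (adjusted p = 3.88e-04, edgeR). Gm38102 (chr5:123133939-123137695, plus strand), opposite the lincRNA gene AI480526, had 170.1, 144.1, 177.6 and 155.0 CPM against 329.9 and 300.6 CPM, a log2 fold change of 0.97 ± 0.14 (adjusted p = 1.25e-06, edgeR).

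Gm13833, within Lncpint, had 109.8, 149.3, 156.9 and 162.0 CPM in litter 1 and 283.9 and 272.6 CPM in litter 2, a log2 fold change of 0.96 ± 0.15 (adjusted p = 4.18e-06, edgeR). Gm26906, wholly opposite Meg3, rose from 1371, 1499, 1267 and 1375 CPM to 2308 and 2018 CPM, a log2 fold change of 0.65 ± 0.12 (adjusted p = 1.35e-04, edgeR). Meg3 itself had a litter log2 fold change of 0.27 at a mean of 12.8 counts and was not called (adjusted p = 0.707). For all 4 the litters were fully apart.

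The remaining 11 ran from 0.38 to 0.86, and 9 of them are named here. Gm12319 (0.86), which lies 709 bp before the 5′ end of the muscle enolase gene Eno3, Gm26772 within the signalling cofactor gene Zmiz1 (0.82), Gm26836 within Ywhae, a 14-3-3 protein gene (0.48), and Gm26785 within Tjap1 (0.53) have no opposite-strand exon. Gm11766 faces the antisense gene Gm11767 (0.64), Gm26798 the phosphatase subunit Ppp6r2 (0.58), Gm26780 Abr (0.52), Gm26859 the calcium sensor of exocytosis Syt7 (0.48) and Gm26584 the amino acid transporter Slc7a2 (0.38). The adjusted p values of the 11 lay between 4.63e-05 (Gm26772) and 0.0464 (Gm26584). Of the facing genes, Ppp6r2 had a litter log2 fold change of 0.87 (adjusted p = 0.00870) and was higher in litter 2, as was Gm26798. Syt7 (0.04, adjusted p = 0.943), Abr (0.14, adjusted p = 0.774) and AI480526 (-0.22, adjusted p = 0.506) were not called, and Gm11767 and Slc7a2 were not tested in edgeR.

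**Figure D5:**
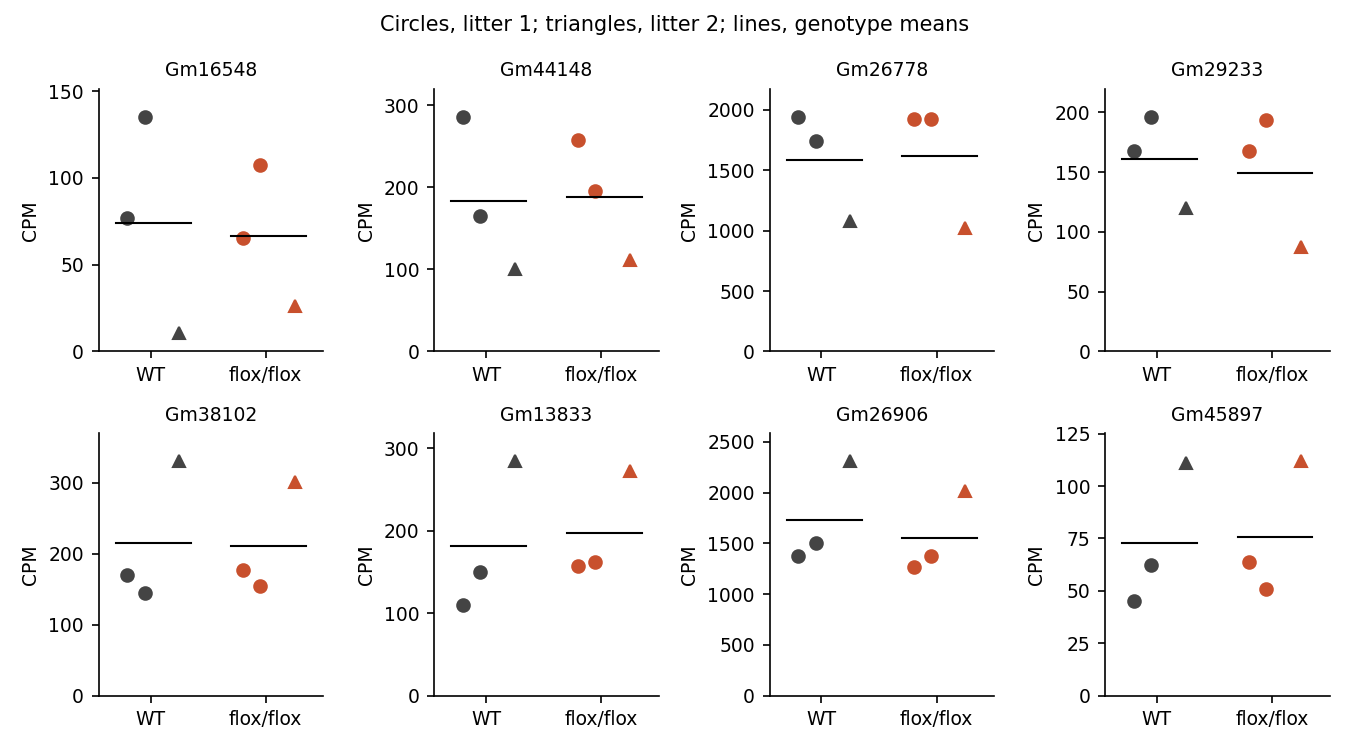
CPM (y axis, from 0) of 8 lincRNAs in the WT (grey) and flox/flox (orange) libraries, with circles for litter 1, triangles for litter 2 and lines for genotype means. In the top row (Gm16548, Gm44148, Gm26778, Gm29233) both triangles lie below all circles, and in the bottom row (Gm38102, Gm13833, Gm26906, Gm45897) above them.

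The litter calls depended on the setting. Over 16 other settings, at an adjusted p under 0.05, between 7 and 28 members were called, and 5 were called in all of them: Gm17300, Gm26669, Gm26778, Gm26825 and Gm44148, all lower in litter 2. Gm16548 kept its call wherever it was tested, but the filter of at least 10 counts in every library left it out. DESeq2 called 13, all among the 27. With library size alone as the scale the count was 7, all lower, and the median of all genes shifted by -0.19 on the log2 scale. Without KO2938, the library with most AY036118, 21 were called, of which 17 were among the 27, and without KO2776 the count was 17.

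Summed marker levels of the cell types are given beside these calls, without a test of the sums. The 10 beta cell markers summed to between 487 and 609 CPM in litter 1 and 393 and 442 CPM in litter 2, and the 7 pan-endocrine markers to between 724 and 889 against 561 and 654 CPM. Single pan-endocrine markers differed. In raw counts Scg2 had 102 in WT2931 and 78 in KO2938, against 154 to 257 in litter 1. Chga had 210 in WT2931, within the 187 to 214 of litter 1, and 128 in KO2938. The 3 alpha cell markers analysed ran from 77.0 to 173 against 54.2 and 64.9 CPM, the 2 delta cell markers from 17.6 to 28.6 against 12.2 CPM in both, and the 1 ductal marker, Krt8, from 17.8 to 33.8 against 8.11 and 8.74 CPM. The delta and ductal values rest on few raw counts. WT2931 and KO2938 had 4 and 1 for Sst, 5 and 6 for Rbp4, and 6 and 5 for Krt8. Krt8 also has an exon of another gene on the opposite strand. The 4 endothelial markers ran from 17.6 to 29.9 against 17.5 and 20.3 CPM and overlapped, and so did the PP cell, acinar, stromal and immune lists. Of single markers, 1 alpha cell, 1 pan-endocrine and 1 ductal marker were called for litter, 0 of the 5 beta cell markers tested were, and none was called for genotype. The part of cell composition in the litter differences of the lincRNAs was not tested. In bulk RNA, fewer cells of a type and less RNA per cell cannot be told apart.

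In 2 lincRNAs the genotype difference itself differed between litters. Gm42418 had 15350 and 27350 CPM in WT2772 and WT2777 against 9921 and 26600 CPM in KO2775 and KO2776, but 10550 CPM in WT2931 against 48510 CPM in KO2938. The interaction of genotype and litter was 2.43 ± 0.31 (log2 scale, SE, adjusted p = 3.41e-10, edgeR). AY036118, which shares 923 exon bases with Gm42418 on the opposite strand, was likewise highest in KO2938, and the part of ribosomal RNA in the level of Gm42418 was not tested.

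Gm26617 (chrX:94793103-94798237, plus strand), opposite Zxda, which the annotation gives as an unprocessed pseudogene, had 463.7, 386.8, 1141 and 452.6 CPM in WT2772, WT2777, KO2775 and KO2776, and 1211 and 457.9 CPM in WT2931 and KO2938. WT2931 and KO2775 were high and the other 4 libraries were close together. The interaction was -2.32 ± 0.26 (adjusted p = 9.81e-13, edgeR). It was called for these 2 of 124 members (1.61%) and for 0.128% of all genes, and litter 2 enters it with 1 library per genotype.

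For comparison, a list of 28 long non-coding RNAs with established names was read in the same way. Of these 13 have a row in the count table, with a median of 9.33 mean counts and 0.91 CPM per kb, against 99.8 CPM per kb for the 124. The 124 were chosen for a mean of at least 30 counts and the list was not, so this gap is a description and was not tested. Snhg14 (478.8), Malat1 (148.5), Kcnq1ot1 (56.8) and Tug1 (55.5) had a mean of at least 30 counts, and each of these 4 has an opposite-strand exon. Malat1 and Neat1, nuclear RNAs that are usually abundant, had 148.5 and 5.67 counts. Of the 6 that were tested, 0 were called for genotype and 0 for litter in edgeR.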

How the data were processed

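Whole-number counts per gene and library were deposited by the authors. By their methods, reads (125 bp, single-end, strand-specific, rRNA reads removed) were mapped to mm10 with HISAT2 2.1.0 and counted with HTSeq on Ensembl genes at otherwise default settings. A deposited table of the authors' own comparison (mean, fold change, standard error, statistic, p-values) was not used. All 6 columns of counts were used. Each library is 1 mouse.

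Of 15286 identifiers 15258 matched GENCODE vM21 (GRCm38), later than the authors' annotation. Exon overlaps came from pyranges 0.1.4 and sequences from GENCODE transcripts. edgeR 4.0.16 (quasi-likelihood, TMM, filterByExpr with a minimum count of 10, genotype only) tested 5478 genes, with Benjamini-Hochberg adjustment. Standard errors are those implied by its F statistic. CPM use TMM library sizes. limma 3.58.1 (voom), DESeq2 1.42.0, other normalizations and filters, robust estimation, blocks and each library left out were alternatives. The totals of 611181 to 800255 are reads assigned to genes, far fewer than the sequencing depth that the paper states per library. Why most reads have no count here was not tested. The low totals limit precision for members near 30 counts.

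The labels give each mouse a litter, so litter pairs libraries. Deviations from genotype means correlated at 0.14 to 0.46 within and -0.35 to -0.25 between litters. Within a genotype the deviations cancel out, so positive values within litters bring negative ones between litters by construction. The methods give no model formula, so litter was an alternative.

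The members and lists were chosen with earlier results of these data known. Named are the 8 highest per kb in each class, the 6 highest counts, members with an adjusted p under 0.05, the 3 smallest p in each direction, and the 3 on either side of the limit. Gm16755, Gm26518, Gm26563, Gm26617, Gm26792, Gm37256 and Gm17200 were named after their values were seen. The gene left out of the rule and 4 members that the rule names are not reported here.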

Additional observations from a re-analysis of the deposited data

Results flagged for a closer look

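In litter 1, the group of 4 libraries, 50 values were examined for a library far from the other 3, and 2 met Dixon's 95% criterion. Gm26778 had 1739 CPM in WT2777 against 1922 to 1941 CPM in the others. Gm26584 had 422.7 CPM in KO2776 against 527.0 to 533.7 CPM in the others. Chance flags about 1 in 20 such groups.

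The genotype difference of Gm42418 differed between the litters by 2.43 on the log2 scale (flox/flox over WT in litter 2 minus litter 1), and that of Gm26617 by -2.32, both by the interaction term in edgeR. In litter 2 each genotype is 1 library.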

How the results depend on the processing

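The number of lincRNAs called for genotype was 0 in the main test and with each library left out, and 1 (Gm26526) with litter as a replicate block and 1 with pairs within litter as a replicate block. The block changed no other call for genotype. Pairs within litter 1 were assigned by the replicate numbers of the labels, and both blocks use the same libraries. The median genotype change of 0.03 became -0.17 with library size only, where the median of all genes was -0.23, and 0.0719 without a low-count filter. It lay between 0.0133 and 0.0722 with a library left out, the highest without KO2938. The 27 litter calls became 7 with library size only and 13 with DESeq2, and 17 to 23 with a library left out, 17 without KO2776. The median litter change of -0.08 became -0.13 with upper quartile normalization, -0.27 with library size only and -0.0491 without a filter, and lay between -0.104 and -0.0288 with a library left out, the latter without KO2938. The litter change of Gm42418 was 0.37 and reversed to -1.01 without KO2938 (1.42 without WT2931). Without AY036118 in the totals the members held 7.98% of counts in place of 6.18%. The number of members lay between 104 and 145, and of those with an opposite-strand exon between 74 and 113, under other limits and definitions. Of 1596 single-gene values under an alternative 1494 kept their direction and side of the threshold, 97 lost and 4 gained a call, and 1 reversed. The causes were not tested.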
